A study of Mus musculus with 9 samples.

Results

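Peroxisome genes were followed in valvular interstitial cells (VICs) of the mouse, which are the fibroblast-like residents of heart valve leaflets, grown in culture. The set was given as 30 gene symbols, namely 12 peroxins, 3 ABCD transporters and 15 enzymes of peroxisomal lipid breakdown or peroxide removal, and all 30 were found among the 51810 genes of the deposited table. The labels give C57BL/6J mice as the source, with tissue of the aortic and mitral valve, and name no genetic alteration. They grew in DMEM with 10% serum, insulin, EGF and basic FGF, and for 24 h received buffer (Control, called untreated in another label), 50 ug/mL low-density lipoprotein (LDL) or 50 ug/mL oxidised LDL (oxLDL), with 3 samples each. Values are TPM, a gene's share of the transcripts in a library after correction for its length, so levels of different genes can be set side by side. Means are given ± SD over n = 3 libraries. Differences were taken between values of log2(TPM + 1), a scale that shrinks the changes of low genes, and were tested with limma across all tested genes. The labels do not state whether the samples were separate cultures. The p-values therefore reflect sample-to-sample spread that may be technical.

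Peroxisomes shorten very-long-chain and branched fatty acids by beta-oxidation, and the first step of that pathway makes hydrogen peroxide, which catalase removes. They have no DNA, so every protein is made in the cytosol and brought in by peroxins: receptors bind the cargo, a docking complex admits it, and a ubiquitin ligase with an AAA ATPase recycles the receptor. ABCD transporters carry acyl-CoA through the membrane, and carnitine acyltransferases make the shortened products ready to leave for the mitochondria. In rodent liver, ligands of the nuclear receptor PPARα raise many of these genes and multiply the organelle.

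Of the 29 genes of the set that were tested, 0 passed in any comparison. Of all tested genes, 0.333% were called for LDL against Control, 0.0148% for oxLDL against Control and 0.104% for oxLDL against LDL. At such shares a count of 0 among 29 genes says little about the set. Eci2, an isomerase that prepares unsaturated acyl-CoA for beta-oxidation, and Crot, the carnitine octanoyltransferase, were 1.24-fold and 1.2-fold higher in mean with LDL than in Control. Their oxLDL means lay at 1.02-fold and 0.99-fold of Control. Cat, which encodes catalase, had means 1.29-fold and 1.38-fold of Control with LDL and oxLDL. Pex11a, a membrane peroxin that promotes peroxisome division, had a mean 1.38-fold of Control with LDL. These 4 genes had an unadjusted p under 0.05 in at least 1 comparison, and the peroxins of the set other than Pex11a had none. All 4 reached it for LDL against Control with higher means (13.8% of the 29, against 3.62% of all tested genes).

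The promoters of these 4 genes are shown because each had a higher mean with LDL than in Control at an unadjusted p under 0.05 in limma. RefSeq promoter windows (250 bases before to 50 after the transcript start, GRCm38.p6) matched 23 of the 30 genes. Capitals mark GC boxes (GGGCGG) and CCAAT boxes (CCAAT) on either strand, and each window is written 5′ to 3′ along its gene. All 4 genes lie on the minus strand, and the windows are chr13:34994095-34994394 for Eci2, chr5:8997097-8997396 for Crot, chr2:103485104-103485403 for Cat and chr7:79743082-79743381 for Pex11a.
Eci2: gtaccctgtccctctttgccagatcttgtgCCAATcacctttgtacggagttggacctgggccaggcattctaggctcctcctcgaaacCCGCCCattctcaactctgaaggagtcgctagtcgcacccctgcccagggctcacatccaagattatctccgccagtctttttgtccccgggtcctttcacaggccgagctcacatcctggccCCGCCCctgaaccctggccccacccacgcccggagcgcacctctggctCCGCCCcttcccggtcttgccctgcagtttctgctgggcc
Crot: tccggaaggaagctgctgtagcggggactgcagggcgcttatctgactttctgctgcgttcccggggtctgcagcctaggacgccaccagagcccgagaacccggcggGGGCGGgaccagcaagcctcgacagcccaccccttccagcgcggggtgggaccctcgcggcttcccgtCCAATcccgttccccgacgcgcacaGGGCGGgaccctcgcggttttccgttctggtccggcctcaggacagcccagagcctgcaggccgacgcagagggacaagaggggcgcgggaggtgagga
Cat: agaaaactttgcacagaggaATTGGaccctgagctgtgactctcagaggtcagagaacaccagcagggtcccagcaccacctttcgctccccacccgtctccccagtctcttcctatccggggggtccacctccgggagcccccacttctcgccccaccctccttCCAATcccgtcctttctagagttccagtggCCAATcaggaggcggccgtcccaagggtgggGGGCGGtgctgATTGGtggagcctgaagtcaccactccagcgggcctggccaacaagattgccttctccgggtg
Pex11a: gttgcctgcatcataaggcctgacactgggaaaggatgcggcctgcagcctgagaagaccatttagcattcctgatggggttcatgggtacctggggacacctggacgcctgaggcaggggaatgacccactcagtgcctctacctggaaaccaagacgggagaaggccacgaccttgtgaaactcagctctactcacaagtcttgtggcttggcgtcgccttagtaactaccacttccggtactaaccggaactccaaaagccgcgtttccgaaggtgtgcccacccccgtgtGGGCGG
Each window held at least 1 GC box, with 3 in Eci2 and 2 in Crot. The box of Pex11a lay past the transcript start, at position 45, as did the last of Eci2, at position 11. CCAAT boxes numbered 4 in Cat, 1 each in Eci2 and Crot and 0 in Pex11a. Over the 23 genes, a GC box occurred in 18 (78.3%), against 69.8% of 9673 tested genes with a window, and a CCAAT box in 11 (47.8%), against 43.3%. The direct repeat of AGGTCA with a spacer of 1 base, which PPAR and RXR bind, occurred in 0 of the 23 and in 0.0414% of tested genes, on either strand. TGACNNNGC, the core of the antioxidant response element, was found in Pex7, Ehhadh and Scp2 (13% of the 23, against 16.9%) and in none of the 4 windows printed. None of these 4 motifs contains another. A match describes letters only, and the absence of one concerns this window alone. Pex2, Pex19, Crat, Hsd17b4, Abcd2, Abcd4 and Amacr had no window.

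The 9 libraries had 20985 to 21433 genes above 0, and the reads per library are unknown because TPM keeps no depth. All 10 fibroblast and VIC markers averaged at least 1 TPM, with summed levels from 11775 to 14219. Markers of macrophages (8 of 8 at 1 TPM or more) and of endothelium (8 of 8) were present too. The summed macrophage markers ran from 234 to 454 TPM in Control, 233 to 657 with LDL and 106 to 667 with oxLDL. The endothelial sums ran from 129.9 to 301 TPM, 136 to 338 and 133 to 318 in the same order, and both overlapped between all treatments. On the log2(TPM + 1) scale the mean was higher with LDL than in Control for 8 of 8 macrophage markers. It was lower with oxLDL than with LDL for 8 of 8, although in TPM Cd68 averaged 38.6 with oxLDL and 37.6 with LDL. Of these markers 0 passed in limma and 0 had an unadjusted p under 0.05. Of all tested genes, 3.62% were higher with LDL at that p and 2.31% lower with oxLDL than with LDL. Of 5 melanocyte markers 3 averaged 1 TPM or more, with sums of 3.81 to 12.1 TPM in Control, 5.38 to 19.2 with LDL and 2.74 to 14.7 with oxLDL, and Dct averaged 2.56-fold of Control with LDL (adjusted p = 0.904). Of 7 cardiomyocyte markers 1 did, Tnnt2, at 9.59 to 63 TPM. Of 8 adipocyte markers, only Fabp4, which endothelium also makes, averaged 1 TPM or more, and Adipoq stayed at or under 0.13 TPM. In such a mixture fewer cells of a type and less RNA per cell cannot be told apart, and the part of these other cells in the results below was not tested.

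Peroxins of membrane assembly differed widely in level. Pex19, the cytosolic carrier of newly made membrane proteins, was the highest of the 12 peroxins, with 73.6, 70 and 72.7 TPM in the Control libraries, 65.3, 72.8 and 74.8 TPM with LDL, and 70.5, 67.3 and 70.6 TPM with oxLDL. Its treatments overlapped, and its values spanned 1.15-fold over the 9 libraries. Pex3, the membrane receptor for Pex19, ran from 15 to 18.7 TPM, so that Pex19 lay 3.6-fold to 4.7-fold above it. Pex3 shares 249 exon bases with Adat2 on the opposite strand (5.51 to 8.87 TPM), and the library kit does not mark strand. Pex16, which helps place Pex3 in the membrane, ran from 10.5 to 13.95 TPM.

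Of the cargo receptors, Pex5, which reads the C-terminal targeting signal, ran from 23.9 to 28.9 TPM. Pex7, which reads the N-terminal signal, ran from 15.5 to 19.2 TPM, and Pex5 was the higher of the pair in every library, by 1.36-fold to 1.79-fold. The docking peroxins were Pex14 (29.9 to 39.5 TPM) and Pex13 (11.6 to 17.5 TPM). The Pex14 libraries with LDL (38.9, 38.9 and 38.3 TPM) all lay above those of Control (37.5, 35.2 and 29.9 TPM), but the log2 difference of 0.18 did not pass (adjusted p = 0.81). Pex14 was picked for full values after they had been seen.

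Pex2 and Pex10, RING subunits of the receptor ubiquitin ligase, ran from 30.4 to 36.4 and from 4.63 to 6.73 TPM. Pex10 had 5.69, 6.73 and 6.55 TPM in Control, 4.63, 5.65 and 5.96 TPM with LDL and 5.2, 5.26 and 4.94 TPM with oxLDL. All oxLDL values of Pex10 lay below all Control values, and the log2 difference of -0.25 did not pass (adjusted p = 1); this gene too was picked after its values had been seen. Pex6, an AAA ATPase that extracts the receptor, ran from 18.9 to 23.5 TPM. Pex26, its membrane anchor, was the lowest of the 12 peroxins, with 4.13, 4.02 and 3.2 TPM in Control, 3.86, 4.37 and 4.61 TPM with LDL, and 3.75, 3.22 and 3.6 TPM with oxLDL. Pex26 with LDL lay above oxLDL in every library and overlapped Control.

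Pex11a had the largest spread among the 12 peroxins of the set, 1.9-fold from lowest to highest library. It had 4.71, 4.86 and 3.49 TPM in Control, 5.69, 6.64 and 5.75 TPM with LDL, and 6.08, 4.16 and 5.15 TPM with oxLDL. The LDL libraries all lay above Control, while oxLDL overlapped both. The mean was 6.03 ± 0.532 TPM with LDL and 4.35 ± 0.751 TPM in Control, a log2 difference of 0.40 (95% CI 0.05 to 0.75, adjusted p = 0.613). Its unadjusted p of 0.0282 in limma became 0.104 without Control 3 and 0.0927 without LDL 2. Pex11a lies on chromosome 7 from 79735957 to 79743131 (GRCm38, GENCODE M21) and shares no exon bases with another annotated gene.

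**Figure D1:**
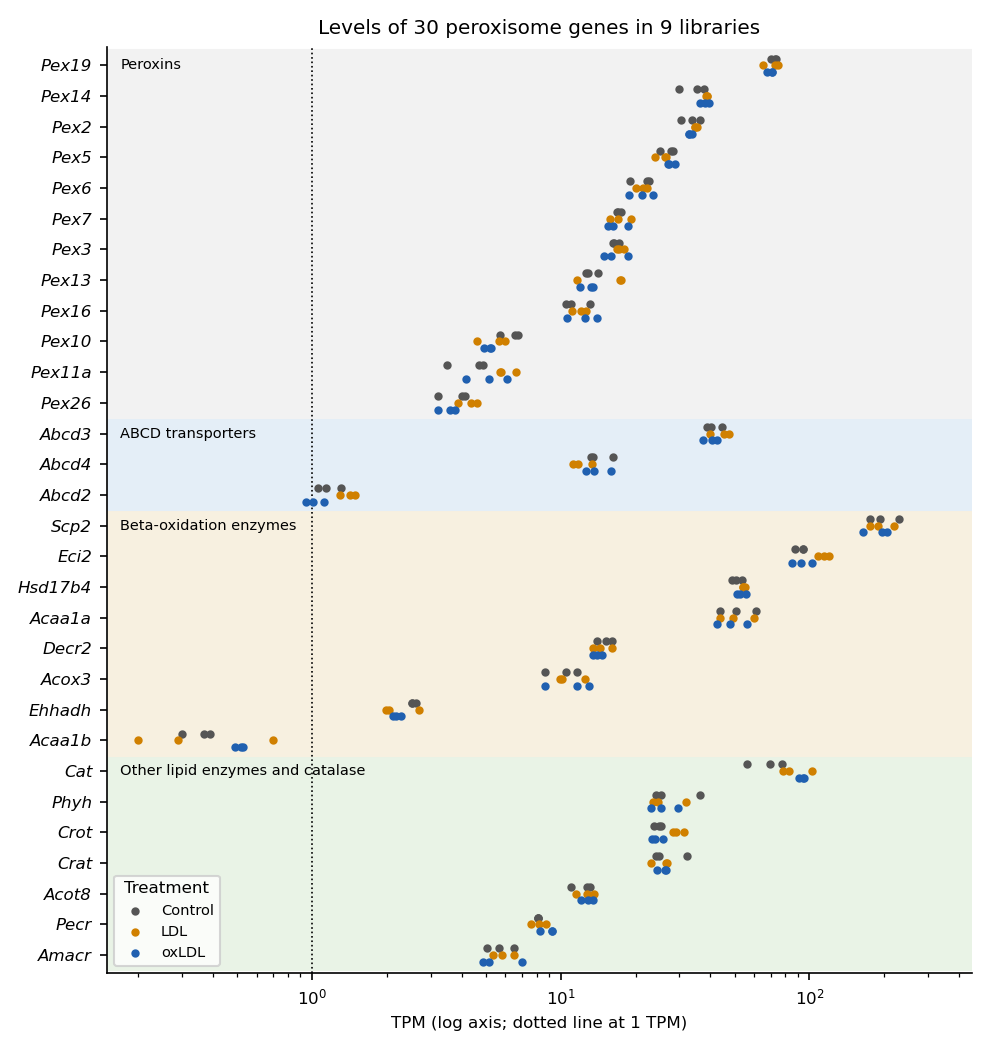
TPM of the 30 peroxisome genes on a log axis, 1 point per library, coloured by treatment and grouped by role with the highest mean at the top of each group. Scp2 stands near 194 TPM on average and Acaa1b, the only gene left of the dotted line at 1 TPM in all libraries, near 0.421 TPM.

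Abcd3 was the highest of the ABCD transporters, and it is the one known for branched and dicarboxylic acyl-CoA. It had 38.6, 40.2 and 44.7 TPM in Control, 39.96, 47.4 and 45.4 TPM with LDL, and 37.4, 40.5 and 42.6 TPM with oxLDL, with all treatments overlapping. Abcd2, a carrier of very-long-chain and polyunsaturated acyl-CoA, was lowest, with 1.06, 1.14 and 1.31 TPM in Control, 1.3, 1.42 and 1.49 TPM with LDL, and 0.95, 1.01 and 1.12 TPM with oxLDL. Abcd2 thus lay 30.4-fold to 40.1-fold below Abcd3 within a library. Its LDL values were above all oxLDL values, at a level near the 1 TPM filter, without passing (log2 difference of oxLDL from LDL -0.25, adjusted p = 1). Abcd4, a relative now placed at the lysosome in cobalamin transport, ran from 11.2 to 16.3 TPM.

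Among the beta-oxidation enzymes, Scp2 was highest. This gene makes both a thiolase for branched chains and the sterol carrier protein 2, which a value per gene does not separate. Scp2 had 229, 192 and 175 TPM in Control, 219.6, 189 and 175 TPM with LDL, and 206, 165 and 195 TPM with oxLDL, and the treatments overlapped. Of its 100-base windows, 21.8% also occur in transcripts of another annotated gene, most often the pseudogene Scp2-ps2, so reads may be shared. Acox3, an oxidase of branched acyl-CoA, ran from 8.68 to 12.9 TPM.

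For the hydration and dehydrogenation steps, Hsd17b4, the D-bifunctional protein, far exceeded Ehhadh, the L-bifunctional protein and a well-known PPARα target in liver. Hsd17b4 ran from 48.97 to 55.6 TPM and Ehhadh from 1.99 to 2.7 TPM, a ratio of 19.4 to 27.2 within a library. The thiolase Acaa1a had 60.97, 50.8 and 43.7 TPM in Control, 59.8, 49.1 and 43.7 TPM with LDL, and 56.3, 42.3 and 48.1 TPM with oxLDL, and the treatments overlapped. Its near copy Acaa1b, another PPARα target of liver, was listed at 0.37, 0.3 and 0.39 TPM in Control, 0.7, 0.2 and 0.29 TPM with LDL, and 0.53, 0.49 and 0.52 TPM with oxLDL. Acaa1b was the 1 gene of the 30 under the filter of a mean of 1 TPM and was not tested. The pair shares 19.3% of the 100-base windows of Acaa1b and 7.21% of those of Acaa1a, so the low values of Acaa1b may hold reads of Acaa1a. Acaa1a also shares 290 exon bases with Myd88 on the opposite strand (30.8 to 40.9 TPM), and the library kit does not mark strand.

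The auxiliary enzymes of unsaturated chains were Eci2 and Decr2, a dienoyl-CoA reductase at 13.5 to 16.1 TPM. Eci2 lay 5.43-fold to 8.52-fold above Decr2. It had 87.6, 94.2 and 93.8 TPM in Control, 108, 119.7 and 115 TPM with LDL, and 85.1, 92.6 and 103 TPM with oxLDL. Every LDL library lay above every Control and every oxLDL library, and Control and oxLDL overlapped. The mean was 114 ± 6 TPM with LDL, 91.9 ± 3.69 TPM in Control and 93.4 ± 8.79 TPM with oxLDL.

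The log2 difference of Eci2 between LDL and Control was 0.31 (95% CI 0.13 to 0.49, adjusted p = 0.276), and the adjusted p was 0.0563 with the replicate number as a block. Between oxLDL and LDL it was -0.29 (95% CI -0.47 to -0.11, adjusted p = 0.645, and 0.133 with the block). Both differences rest on the same LDL libraries. Eci2 lies on chromosome 13 from 34977748 to 35027096 and shares 189 exon bases with the antisense model Gm16984, which was listed at 0.28 to 1.09 TPM. The promoter window printed for Eci2 lies inside this span, not at its minus-strand start of 35027096.

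Crot and Crat attach carnitine to medium-chain and to acetyl groups for export. Crot had 25.2, 23.6 and 24.9 TPM in Control, 28.4, 31.3 and 29.1 TPM with LDL, and 24, 25.7 and 23.2 TPM with oxLDL. As with Eci2, its LDL libraries were all above the other 6, which overlapped. On the log2(TPM + 1) scale the means of the macrophage markers were likewise higher with LDL than in Control and than with oxLDL. LDL 2, the library highest in both Eci2 and Crot, had the lowest macrophage sum of the LDL libraries, 233 TPM. The part of macrophages in the levels of Eci2 and Crot was not tested. The log2 difference of Crot was 0.26 for LDL against Control (95% CI 0.10 to 0.42, adjusted p = 0.33) and -0.27 for oxLDL against LDL (95% CI -0.43 to -0.11, adjusted p = 0.566). Crat ran from 23.1 to 32.1 TPM, with its highest value in Control 1. The ratio of Crot to Crat was 1.23, 1.18 and 1.09 in the LDL libraries and 0.786 to 0.999 in the other 6. Crot lies on chromosome 5 from 8966033 to 8997324 and shares 166 exon bases with Gm37153 on the opposite strand, listed at 0 to 0.9 TPM.

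Catalase was the highest of the remaining enzymes. Cat had 69.6, 56.3 and 77.4 TPM in Control, 82.7, 78.4 and 102 TPM with LDL, and 94.5, 94.8 and 90.7 TPM with oxLDL. All 6 lipoprotein libraries lay above the 3 Control libraries, and LDL and oxLDL overlapped. The mean was 67.8 ± 10.7 TPM in Control, 87.7 ± 12.6 TPM with LDL and 93.3 ± 2.28 TPM with oxLDL. The log2 difference was 0.37 for LDL against Control (95% CI 0.08 to 0.66, adjusted p = 0.529) and 0.47 for oxLDL against Control (95% CI 0.18 to 0.76, adjusted p = 0.842). These comparisons share their Control libraries, and with the replicate block in limma their adjusted p was 0.17 and 0.22. The difference with LDL was 0.24 without Control 2 and 0.26 without LDL 3, and its unadjusted p of 0.0184 in limma became 0.0675 and 0.0731. The interval for oxLDL against LDL ran from -0.19 to 0.39. Cat lies on chromosome 2 from 103453849 to 103485160.

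The other enzymes had no unadjusted p under 0.05 in limma between treatments. Amacr, the racemase that readies branched acyl-CoA for oxidation, was the lowest of them, with 6.5, 5.63 and 5.04 TPM in Control, 6.49, 5.82 and 5.33 TPM with LDL, and 7, 4.86 and 5.14 TPM with oxLDL. Its treatments overlapped. Phyh, which starts the alpha-oxidation of phytanic acid, ran from 23 to 36.3 TPM and Acot8, an acyl-CoA thioesterase, from 11 to 13.7 TPM. Acot8 shares 246 exon bases with Snx21 on the opposite strand (19.53 to 25.15 TPM), and the library kit does not mark strand. Pecr, an enoyl-CoA reductase, ran from 7.58 to 9.23 TPM, with all oxLDL values above all Control values (log2 difference 0.12, adjusted p = 1).

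**Figure D2:**
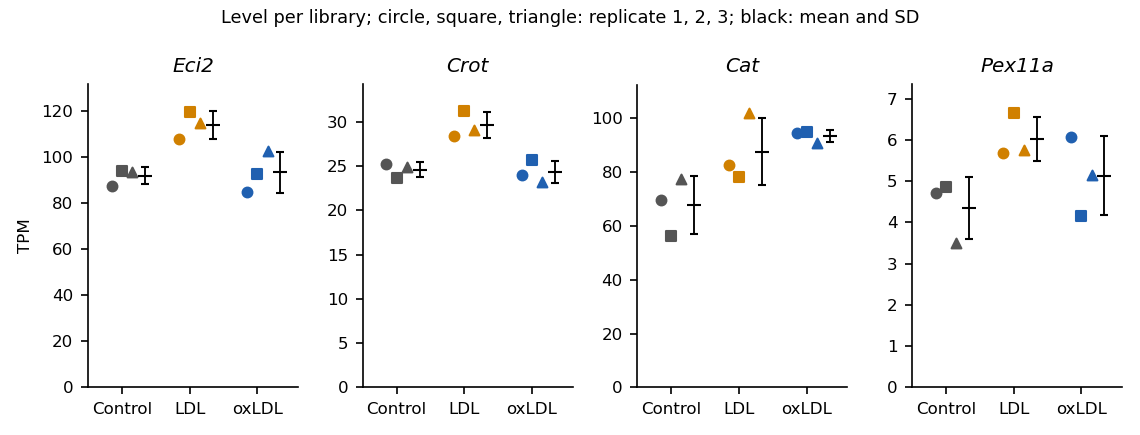
TPM of Eci2, Crot, Cat and Pex11a in each of the 9 libraries from a zero baseline, with the mean and SD (n = 3) of each treatment in black. The LDL points of Eci2 and Crot stand above the other 6 libraries, the LDL and oxLDL points of Cat stand above Control, and the oxLDL points of Pex11a spread from 4.16 to 6.08 TPM.

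LDL was compared with Control first. Of the 29 tested genes 0 passed in limma, where 0.333% of 13495 tested genes were called (0.178% higher and 0.156% lower). An unadjusted p under 0.05 was reached by 4 genes that were higher (13.8%, against 3.62% of all tested genes) and by 0 that were lower (against 3.03%). Those were Eci2, Crot, Cat and Pex11a. The libraries were separated, with every LDL value above every Control value, for 6 genes (20.7%, against 5.61%), which adds Pex14 and Hsd17b4 to the 4, and in the opposite direction for 0 (against 5.06%). That count of 6 was 10 without Control 3 and 11 without LDL 1. The median log2 difference was 0.04, beside -0.0018 for all tested genes, and it was 0.06 without Control 1 or Control 2 and 0.0019 without Control 3. By role, the mean on the log2(TPM + 1) scale was higher with LDL for 9 of 12 peroxins and 2 of 3 transporters. It was higher for 3 of 7 tested beta-oxidation enzymes and 5 of 7 other enzymes, against 6662 of 13495 tested genes. In TPM, Pex6 averaged 21.27 with LDL and 21.28 in Control.

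The intervals bound what the test could have missed on the log2(TPM + 1) scale. For low genes such as Abcd2, a bound of 1.5-fold on that scale allows a larger change in TPM. For 27 of the 29 genes the 95% CI lay within a 1.5-fold change either way on the log2(TPM + 1) scale, against 77% of all tested genes, and Cat and Pex11a were the exceptions. The median half-width of an interval was 0.26. The summed level of the 30 genes was 968, 899.9 and 873 TPM in Control, 963, 969 and 963 TPM with LDL, and 944, 883 and 949.9 TPM with oxLDL. The treatments overlapped in this sum.

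For oxLDL against Control 0 of the 29 genes passed in limma, where 0.0148% of all tested genes were called, all of them higher. Cat was the 1 gene with an unadjusted p under 0.05 and a higher mean (3.45%, against 1.79%), and 0 had a lower mean (against 2.07%). Without Control 1 there were 2 higher and 1 lower, and 1 was lower also without LDL 1, with the replicate block, with a pseudocount of 5 and with median-ratio scaling. Cat and Pecr were separated upward (6.9%, against 3.5%), and Pex10 and Ehhadh downward (6.9%, against 3.83%). These 4 became 7 without Control 1, without Control 3 or without oxLDL 2. The median log2 difference was -0.02, beside -0.0028 for all tested genes, and turned to 0.0301 without Control 1 and 0.0215 without oxLDL 2. Of the 29 intervals 28 lay within 1.5-fold on the log2(TPM + 1) scale, against 79.3%, Cat being the exception.

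For oxLDL against LDL, which differ by oxidation of the particle, 0 of the 29 passed in limma, where 0.104% of all tested genes were called (0.0371% higher and 0.0667% lower). Eci2 and Crot had an unadjusted p under 0.05 and lower means with oxLDL (6.9%, against 2.31%), and 0 genes had higher ones (against 1.6%). Separation downward was seen for Eci2, Crot, Abcd2, Pex26 and Pex2 (17.2%, against 4.2%) and upward for Pex5 alone (3.45%, against 4.11%). These 6 became 10 without LDL 1 or without oxLDL 1. The median log2 difference was -0.04, beside 0.00087 for all tested genes, and was -0.07 without oxLDL 1 and -0.0051 without oxLDL 2. All 29 intervals lay within 1.5-fold on the log2(TPM + 1) scale, against 79.4%. For low genes such as Abcd2 this does not bound the change in TPM at 1.5-fold.

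**Figure D3:**
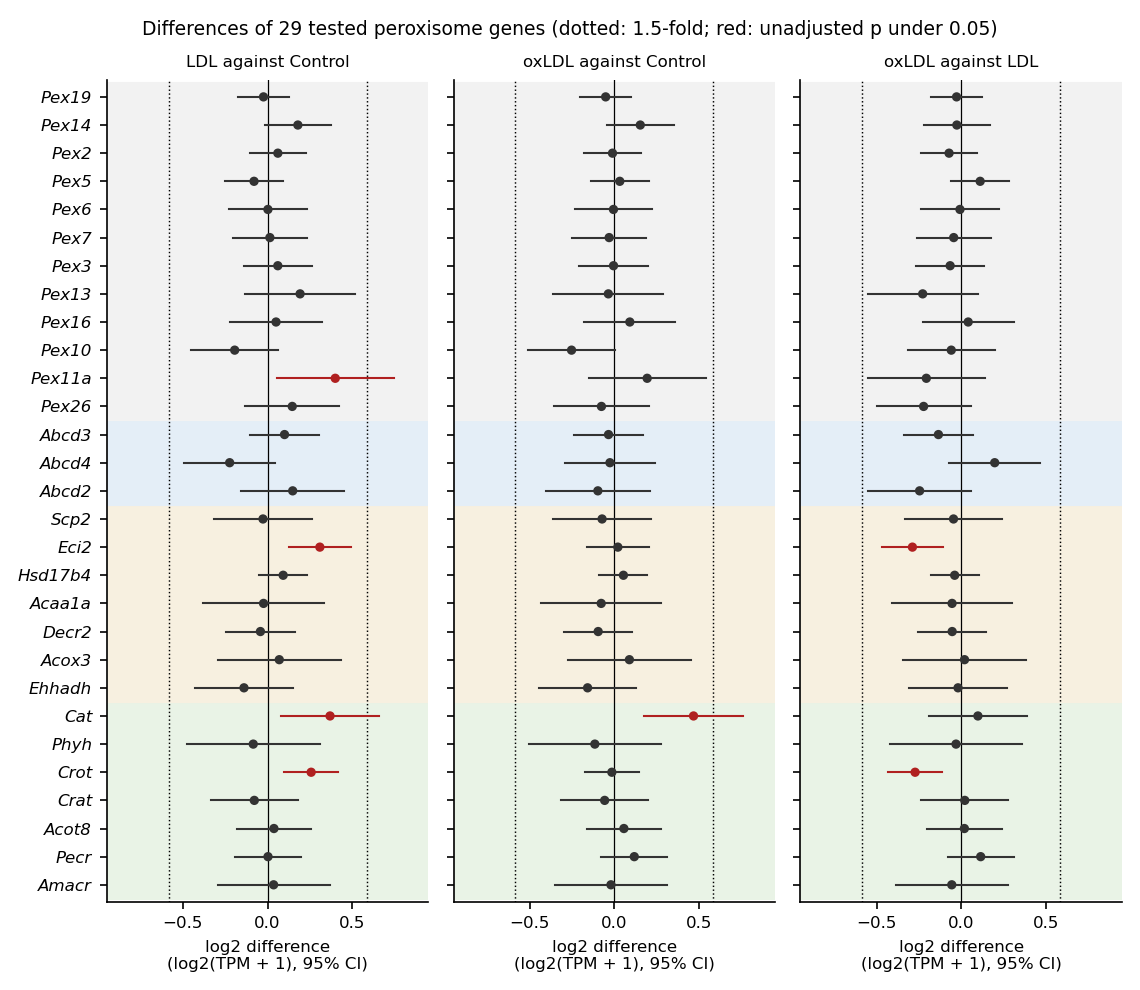
Log2 differences of the 29 tested peroxisome genes with 95% CI in the 3 comparisons, by role. Dotted lines mark a 1.5-fold change on the log2(TPM + 1) scale, and red an unadjusted p under 0.05 in limma. Red marks 4 genes for LDL against Control, 1 for oxLDL against Control and 2 for oxLDL against LDL. After adjustment 0 of the 29 passed, against 0.333%, 0.0148% and 0.104% of all tested genes in the same order.

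The spread of a gene over the 9 libraries was divided into the part between treatments, the part between replicate numbers and a rest. The rest ran from 1.21% (Abcd2) to 99.8% (Pex6) over the 29 genes. With 3 libraries a group, some spread falls between treatments by sampling alone, so that part is not an amount owed to treatment. The median part between treatments was 29% for the 29 genes and 16.9% for all tested genes, and the median part between numbers was 21.8% and 44.2%. The part between numbers was the greater for 15 of the 29 genes (51.7%), against 69.7% of all tested genes. Crot (85.2%), Eci2 (76.8%), Abcd2 (76.5%) and Cat (66%) varied mostly between treatments. Amacr (82.4%), Acaa1a (81.4%), Scp2 (70.4%), Acox3 (69.8%) and Decr2 (61.3%) varied mostly between numbers. Acaa1a was highest in the library numbered 1 of each treatment, with 60.97, 59.8 and 56.3 TPM for Control, LDL and oxLDL. Summed endothelial markers were also highest in the libraries numbered 1 (301, 338 and 318 TPM), and their part in the levels of these enzymes was not tested.

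**Figure D4:**
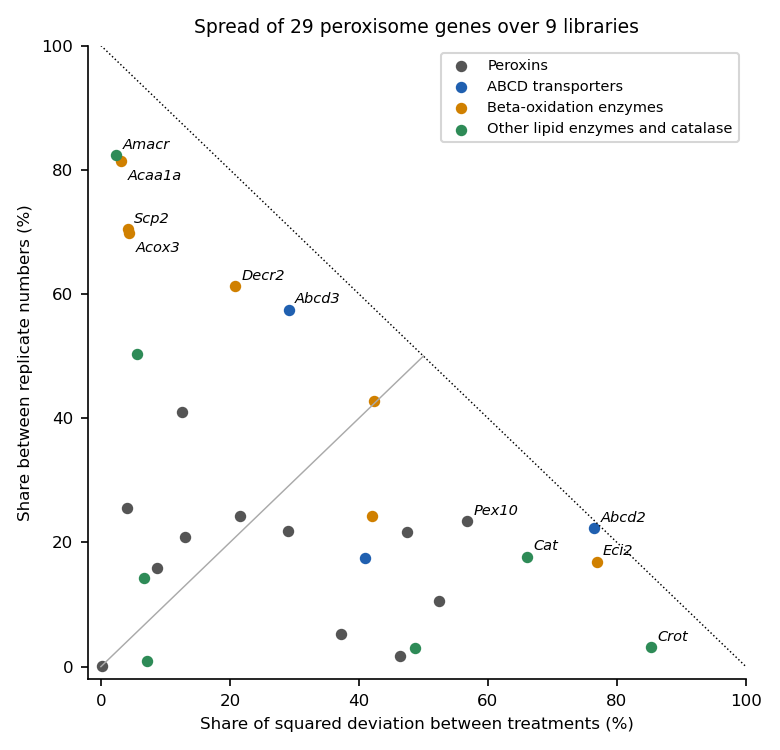
Share of each gene's squared deviation on the log2(TPM + 1) scale that lies between treatments (x axis, %) and between replicate numbers (y axis, %), 1 point per tested gene, coloured by role, with a grey line of equal shares and a dotted line where the 2 add to the whole. Crot, Eci2, Abcd2 and Cat lie to the right, and Amacr, Acaa1a, Scp2 and Acox3 at the top left.

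A further 50 peroxisomal genes were listed to place the 30 among their kind, and 36 of them were tested. With LDL 1 of the 36 rose and 0 fell, where 0.178% and 0.156% of all tested genes did. At an unadjusted p under 0.05, 3 were higher (against 3.62%) and 0 lower (against 3.03%), and the median log2 difference was -0.02. The gene that rose was Ech1, a dienoyl-CoA isomerase of unsaturated fatty acids that acts next to Eci2 and Decr2 and is found in peroxisomes and mitochondria. Ech1 had 68.7, 58.7 and 58.4 TPM in Control, 102, 96.7 and 92.7 TPM with LDL, and 76.9, 68.3 and 67.2 TPM with oxLDL. All LDL values stood above the other 6. The log2 change with LDL was 0.65 (95% CI 0.45 to 0.84, adjusted p = 0.0238, and 0.00193 with the block). It did not pass without Control 2 or 3, without LDL 1, 2 or 3, without a filter, with median-ratio scaling or with the 6 compared libraries alone (adjusted p = 0.0571 to 0.108).

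With oxLDL 0 of the 36 passed in limma against Control, where 0.0148% of all tested genes were called. At an unadjusted p under 0.05, 5 were lower (13.9%, against 2.07%) and 0 higher (against 1.79%). Nudt7, a hydrolase of CoA, had a log2 difference of -0.20 (adjusted p = 1) and Acbd4, an acyl-CoA binding protein that tethers peroxisomes to the endoplasmic reticulum, of -0.28 (adjusted p = 1, and -0.17 without oxLDL 2). Against LDL, Ech1 differed by -0.45 with oxLDL, at an adjusted p of 0.215 that the replicate block brought to 0.0203, and Acbd4 differed by -0.22 (adjusted p = 1, and -0.11 without oxLDL 2). At an unadjusted p under 0.05, 1 of the 36 was lower with oxLDL than with LDL (2.78%, against 2.31% of all tested genes). In the other direction, 0 were higher (against 1.6%).

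Mitochondrial beta-oxidation, which takes up the shortened chains, gave larger differences side by side, although the difference between the lists was not tested. Of 18 tested genes 3 rose with LDL and 0 fell, against 0.178% and 0.156% of all tested genes, with a median log2 difference of 0.15. At an unadjusted p under 0.05, 8 were higher with LDL and 1 lower (against 3.62% and 3.03%), and 9 were lower and 0 higher with oxLDL than with LDL (against 2.31% and 1.6%). Cpt1a, which admits long chains to mitochondria, rose by 0.89 (adjusted p = 0.00394), Acaa2, the mitochondrial thiolase, by 0.69 (adjusted p = 0.0103), and Acadl, a dehydrogenase of long chains, by 0.58 (adjusted p = 0.0296). Cpt1a passed in all 15 alternatives. Acaa2 failed without LDL 2 or LDL 3 (adjusted p = 0.0587 and 0.0579), and Acadl failed in 11 alternatives, among them each fit that left out a library (adjusted p = 0.0549 to 0.13). With oxLDL 0 of the 18 passed against Control in limma, where 0.0148% of all tested genes were called. At an unadjusted p under 0.05, 1 was higher (5.56%, against 1.79%) and 0 lower (against 2.07%). Cpt1a differed by 0.45 (adjusted p = 0.23) and Acadl by 0.17 (adjusted p = 1). Against LDL, Acaa2 fell by 0.58 (adjusted p = 0.0254), a call that ended in 9 alternatives, among them each fit without an LDL or oxLDL library and those without Control 1 or 2 (adjusted p = 0.0512 to 0.185). Acadl differed by -0.41 with oxLDL from LDL and passed with the replicate block alone (adjusted p = 0.309, and 0.0396 with the block).

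**Figure D5:**
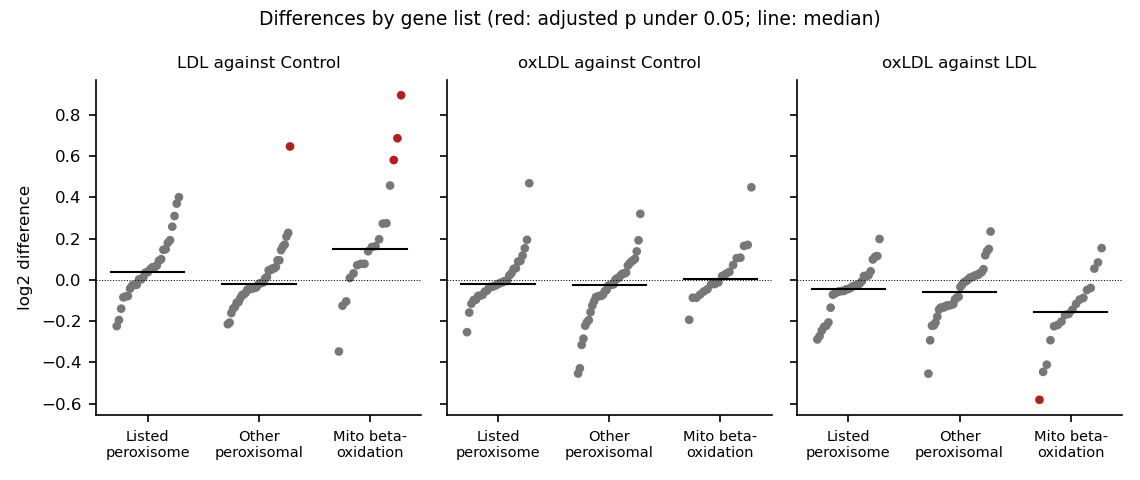
Log2 differences of the 29 tested genes of the set, the 36 other peroxisomal genes and the 18 mitochondrial beta-oxidation genes in the 3 comparisons, 1 point per gene in ascending order, with medians as lines and red for an adjusted p under 0.05. For LDL against Control the medians are 0.04, -0.02 and 0.15, and red marks 0, 1 and 3 genes.

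Of 12 genes of PPAR receptors and cofactors 8 were tested, and 0 passed in limma in any comparison. Of all tested genes 0.333% were called for LDL against Control, 0.0148% for oxLDL against Control and 0.104% for oxLDL against LDL. An unadjusted p under 0.05 was reached by 0 of the 8 for LDL against Control (against 3.62% higher and 3.03% lower). Ppard reached it for oxLDL against Control, with a higher mean (12.5%, against 1.79%). Pparg reached it for oxLDL against LDL, with a lower mean (12.5%, against 2.31%). Ppara, the receptor named for peroxisome proliferation, was listed at 0.2 to 0.89 TPM and was under the filter. Ppard, the widely expressed PPARδ, averaged 24.7 TPM in Control, 28.3 TPM with LDL and 28.9 TPM with oxLDL (log2 differences from Control 0.19 and 0.21, adjusted p = 0.764 and 1). Pparg, the adipogenic PPARγ, averaged 1.91, 3.16 and 1.58 TPM in the same order, with a log2 difference of 0.53 for LDL against Control (adjusted p = 0.875) and -0.65 for oxLDL against LDL (adjusted p = 1). The difference for LDL was 0.27 without Control 2, 0.29 without LDL 3 and 0.24 with a pseudocount of 5, and that for oxLDL against LDL was -0.41 without LDL 3 and -0.30 with a pseudocount of 5. Lpin1, a coactivator and phosphatidate phosphatase, differed by -0.25 with oxLDL from Control (adjusted p = 1), and by -0.023 without Control 1, -0.46 without Control 3, -0.14 without oxLDL 2 and -0.15 with a pseudocount of 5. Ncoa1, a nuclear receptor coactivator, differed by -0.26 with oxLDL from LDL (adjusted p = 1), and by -0.13 without LDL 3 and -0.14 without oxLDL 2.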

How the data were processed

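Each of 9 VIC libraries started from 50 ng of RNA and was read in 100 bp pairs; the kit leaves strand unmarked, per the labels' protocols. The authors deposited TPM; STAR (no version), RSEM 1.3.1 and the build mm10 are named in the submitters' processing notes, and no source used here names the annotation. TPM keeps no depth, so no counting interval is given. An exact 0 can be an estimate that failed.

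Values were analysed as log2(TPM + 1) for 13495 genes whose mean reached 1 TPM, and 38315 were left out. Two-sided tests came from limma 3.58.1 (R 4.3.3, eBayes, trend on), and p-values were adjusted by Benjamini-Hochberg over these genes, with a threshold of 0.05. All 9 libraries shared one spread (6 residual degrees of freedom). A permutation of 3 against 3 cannot go below p = 0.1, so none was run. The fit was also run on simulated data with independent libraries. Those data lack the shared deviations of same-numbered libraries described below, so that run does not test the fit in their presence. The members, lists, tests and named genes were chosen with earlier results of these data known. Full values went to genes with an unadjusted p under 0.05, the highest and lowest of each role and the Acaa1 pair, with Pex14 and Pex10 added after their values were seen, and from other lists up to 4 called or 2 leading genes. No 2 libraries were identical.

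Same-numbered libraries, numbered in the sample titles, deviated together (correlations 0.172 to 0.497 in 9 pairs, against -0.309 to 0.13 in 18 pairs with different numbers). The fit with this number as a block had 4 residual degrees of freedom. Gene positions, exon overlaps and 100-base windows came from GENCODE M21 (GRCm38), promoters from RefSeq (GRCm38.p6), read in Python 3.11.15. Alternatives covered the block, pseudocount, filter, scaling, compared libraries and each library left out.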

Additional observations from a re-analysis of the deposited data

How the results depend on the processing

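Under the 15 alternatives run per comparison (replicate block, pseudocounts of 0.5 and 5, no filter, median-ratio scaling, the 6 compared libraries alone, and each of 9 libraries left out), 0 of the 29 peroxisome genes passed in any comparison, with lowest adjusted p of 0.0563 for LDL against Control, 0.22 for oxLDL against Control and 0.133 for oxLDL against LDL. All 3 lowest values came from the fit with the replicate block, which pairs same-numbered libraries and, among named genes, changed the calls of Ech1 and Acadl for oxLDL against LDL and no other. Eci2, Crot, Cat and Pex11a kept their direction in all alternatives, as Eci2 and Crot did for oxLDL against LDL. In the main fit 0.333%, 0.0148% and 0.104% of all tested genes were called in the 3 comparisons in the same order.

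The calls over all genes moved far more. For LDL against Control the 45 calls became 115 with the replicate block, 19 without a filter, 9 with the 6 compared libraries alone, and 4 (without LDL 2) to 37 with a library left out. For oxLDL against Control the 2 became 17 with the block, 10 without a filter, 1 with a pseudocount of 5, 1 with the 6 libraries alone, and 1 to 3 with a library left out. For oxLDL against LDL the 14 became 35 with the block, 8 without a filter, 6 with the 6 libraries alone, and 1 (without oxLDL 2) to 10 with a library left out.

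With a library left out, separated genes numbered 6 to 11, 4 to 7 and 6 to 10 in the 3 comparisons in the same order; fewer libraries separate more easily. The median for oxLDL against Control ran from -0.0487 (without oxLDL 3) to 0.0301 (without Control 1). Median-ratio scaling shifted the median of all genes by at most 0.0058. Depth is unknown, and near 1 TPM (Abcd2, Acaa1b, Ehhadh) the log2(TPM + 1) scale understates change; for Pex11a with LDL a pseudocount of 5 gave 0.24 in place of 0.40.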
